A study of Mus musculus with 8 samples.

Results

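The extracellular matrix genes Col1a1, Col1a2, Col3a1 and Fn1 were examined as RNAs crosslinked to SRSF3-GFP in cultures of newborn mouse heart cells. The spans of these 4 genes were set by position on the mm9 genome, each on the strand of its gene. Their spans held 640 of 815414 cDNAs in replicate 1 and 1673 of 2253688 in replicate 2, which is 0.0785% and 0.0742% of each library. Among the 237938 strand windows of 10 kb with a position in either replicate, 20 overlapped these spans.

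The series held 8 mouse samples on a C57BL/6 background. For iCLIP there were 2 replicates (iCLIP_SRSF3_1 and iCLIP_SRSF3_2), in which cultured cells of P0-1 pups received 15 µg of SRSF3-GFP modRNA and, 48 h later, UV light of 254 nm. No untransfected culture or control precipitation is among the samples, and the tagged SRSF3 came on top of whatever the cells made themselves. Separate cultures are not stated for the replicates, so differences between them may be technical. P-values between the replicates cover counting error only, not a spread between libraries or cultures. The other 6 samples are adult hearts, 3 of SRSF3flox/flox;alphaMHC-CreERT2 mice and 3 of alphaMHC-CreERT2 mice, all given 4-hydroxytamoxifen. They are not analysed here. A further value came from a merged track that sums 5 libraries. Subtracting both replicates from it left 1138453 cDNAs of 3 further libraries, called the other libraries below. These carry other library identifiers in the header and are available here only as a pool, so they have no replicate error. The sample labels give no protein, cells or treatment for them.

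SRSF3 is a small SR protein that binds RNA and takes part in splicing, 3′ end choice and mRNA export. In iCLIP, UV light joins the protein to RNA it touches, and each cDNA ends next to the joined nucleotide. A cDNA count at a position is a count of crosslinking events there only if duplicate cDNAs were collapsed, which is not stated here. Type I collagen is a triple helix built from the products of Col1a1 and Col1a2, and type III collagen is built from the product of Col3a1. Fn1 encodes fibronectin, a matrix glycoprotein that binds integrins and collagen and whose RNA is known for its cassette exons. In the heart, fibrillar collagens are made mainly by fibroblasts, not by cardiomyocytes. The labels name the cells as neonatal cardiomyocytes. No annotation of mm9 was used here, so markers of cardiomyocytes or of other heart cells were not counted and the share of non-muscle cells in the cultures is not known. Fewer cells of a type and less RNA per cell cannot be told apart in such bulk libraries.

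The coding sequences of these genes differ in how often they carry words of the SRSF3 consensus, and a stretch of Col1a1, Col1a2 and Fn1 is shown for that reason. The consensus was searched as 8 words of 5 bases, with C as the second and the last letter and A or T as each of the others, on the coding strand only, overlapping matches included, in the longest coding sequence of each gene in GENCODE M21 (GRCm38). Matches are shown in capitals. In each of these 3, the 60 coding bases with the most matches are printed as DNA, the first such window where several tie. They are bases 2834 to 2893 of Col1a1, 1236 to 1295 of Col1a2 and 1248 to 1307 of Fn1, counted from the start codon.
Col1a1: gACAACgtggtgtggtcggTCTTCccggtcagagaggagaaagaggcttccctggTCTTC
Col1a2: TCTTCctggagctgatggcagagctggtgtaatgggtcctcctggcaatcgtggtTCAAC
Fn1: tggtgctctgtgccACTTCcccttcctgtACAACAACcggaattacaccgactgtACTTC
The 3 collagen coding sequences held 4.36 (Col1a1), 4.62 (Col1a2) and 4.33 (Col3a1) such words per kb, and that of Fn1 held 11.03. The median over 21205 coding genes was 9.78 per kb, and 6.37%, 7.37%, 6.26% and 61.8% of those genes had fewer than Col1a1, Col1a2, Col3a1 and Fn1. Of all windows of 60 coding bases, 40.4% held at least 1 word. The looser word CNNC had 90.6, 67.5, 60.8 and 87.3 matches per kb in Col1a1, Col1a2, Col3a1 and Fn1, against a median of 73.1. Fewer were found in 72.8%, 41.8%, 31.8% and 69.0% of genes, and 94.4% of windows of 60 bases held it. A match is not a binding site, and the iCLIP positions could not be laid on these sequences because their builds differ.

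Signal of the 4 spans lay almost wholly on the strand of the gene. On mm9 the covered positions ran from 94797570 to 94814513 on chromosome 11 for Col1a1 (plus strand), from 4455697 to 4491516 on chromosome 6 for Col1a2 (plus), from 45368483 to 45406473 on chromosome 1 for Col3a1 (plus) and from 71632042 to 71699799 on chromosome 1 for Fn1 (minus). They began 70, 97, 183 and 201 nt inside the 5′ edges of the spans of Col1a1, Col1a2, Col3a1 and Fn1 and ended 87, 184, 227 and 42 nt before the 3′ edges. On the strand of the gene lay 100% and 99.7% of the cDNAs of Col1a1 in replicates 1 and 2, 100% and 100% of those of Col1a2, 98.5% and 97.7% of those of Col3a1, and 99.4% and 99.8% of those of Fn1. Over all 4 spans the opposite strand held 3 cDNAs in replicate 1 and 6 in replicate 2. This is a length of 16944, 35820, 37991 and 67758 nt in Col1a1, Col1a2, Col3a1 and Fn1, beside gene lengths of 16819, 36731, 38169 and 67681 nt in GENCODE M21, so the Col1a2 span is shorter than that annotated gene. In the 20 kb on either side, the same strand held few cDNAs. In replicate 2 there were 23 beside Col1a1, 8 beside Col1a2, 2 beside Col3a1 and 4 beside Fn1, and in replicate 1 there were 5, 0, 1 and 0. The densities were 0.255 cDNAs per 1000000 cDNAs and kb in replicate 2 in the flanks of Col1a1 and 8.20 in its span, and 0.0444 against 6.13 for Fn1.

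Fn1 carried the most SRSF3-GFP cDNAs of the 4 genes and Col1a1 the most for its length. Counts were divided by the library total and are given per 1000000 cDNAs (CPM). Fn1 had 336 cDNAs in replicate 1 and 939 in replicate 2, or 412 and 417 CPM (mean 414 ± 3.25, SD, n = 2). Col1a1 had 131 and 316 cDNAs, or 161 and 140.2 CPM (150.4 ± 14.5). Col1a2 had 106 and 291 cDNAs, or 129.99 and 129 CPM (129.6 ± 0.618). Col3a1, the lowest, had 67 and 127 cDNAs, or 82.2 and 56.4 CPM (69.3 ± 18.3). The 2 replicates were close for Fn1 and Col1a2, and Col3a1 had the widest spread. A count of 0 in a span would have allowed up to 3.68 CPM in replicate 1 and 1.33 CPM in replicate 2 (3 cDNAs), so all 4 genes stood well above the limit of detection.

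Per kb of span, the mean level was 8.80 ± 0.845 CPM per kb for Col1a1, 6.09 ± 0.0477 for Fn1, 3.59 ± 0.0171 for Col1a2 and 1.80 ± 0.475 for Col3a1 (SD, n = 2). The order was the same in both replicates. Each step between neighbours exceeded the sum of their SDs, but an SD of 2 values can lie below counting error. For replicate 1 the exact 95% Poisson intervals were 7.85 to 11.1 for Col1a1 and 5.43 to 6.74 for Fn1. They were 2.95 to 4.36 for Col1a2 and 1.66 to 2.72 for Col3a1. In neither replicate did the intervals of neighbours overlap. Col1a1 stood 1.55 and 1.34 times as high as Fn1, Fn1 stood 1.68 and 1.71 times as high as Col1a2, and Col1a2 stood 1.68 and 2.44 times as high as Col3a1. These are levels per length of gene, introns included. The longest coding transcript in GENCODE M21 makes up 35.3% of the gene for Col1a1, 14.6% for Col1a2, 14.6% for Col3a1 and 12.3% for Fn1. A gene with a larger exonic share can hold more cDNAs per kb of span, and no RNA level of these cultures was used. Whether the order reflects a preference of SRSF3 was therefore not tested. In the other libraries Col1a1 and Fn1 were level, with 3.44 CPM per kb (exact 95% Poisson interval 2.67 to 4.37) and 3.55 (3.14 to 4.00).

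**Figure D1:**
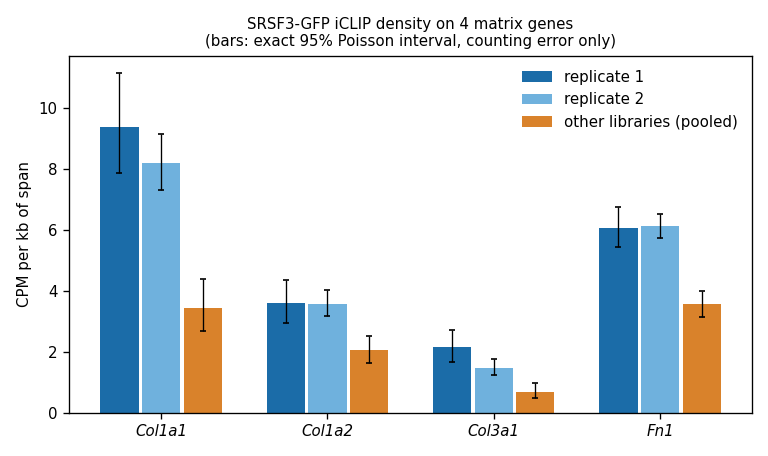
Sense cDNAs per 1000000 cDNAs and kb of span (CPM per kb) for each gene in replicate 1, replicate 2 and the pooled other libraries, with exact 95% Poisson intervals that cover counting error only. Col1a1 is highest in both replicates at 9.39 and 8.20, and every gene is lower in the other libraries than in either replicate.

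Among all windows of the genome the densest windows of the matrix genes were high but not at the top. The densest 10 kb window of Fn1, chromosome 1 from 71640001 to 71650000, held 109 ± 0.872 CPM (SD, n = 2) and ranked 429 of 237938. The densest window of Col1a1, chromosome 11 from 94810001 to 94820000, held 84.9 ± 13.4 CPM and ranked 686. Those of Col1a2 (chromosome 6 from 4480001 to 4490000, 36.3 ± 4.22 CPM) and Col3a1 (chromosome 1 from 45400001 to 45410000, 18.7 ± 8.24 CPM) ranked 3598 and 11255. The highest 1% of windows began at 44.7 CPM and the highest 5% at 18.0 CPM. Thus by their means the densest windows of Fn1 and Col1a1 reached the first class, and those of Col1a2 and Col3a1 the second. Other windows of these genes were lower, down to 41.3 CPM (rank 2799) in Fn1 and 9.29 CPM (rank 27605) in Col3a1. The densest Col3a1 window held 24.5 CPM in replicate 1 and 12.9 in replicate 2, on either side of the 18.0 CPM level.

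Signal along Col1a1 was concentrated at the 3′ end. In replicate 1 the last 5 kb held 77 of 131 cDNAs (58.8%, Wilson 95% interval 50.2% to 66.8%), and in replicate 2 they held 171 of 316 (54.1%, 48.6% to 59.5%), where an even spread would put 29.2%. When the span was cut into 10 equal sections, the last held 29.9 ± 7.38% and the one before it 20.9 ± 2.62% (SD, n = 2), while no other section had a mean above 7.89%. The fullest 1 kb bin of both replicates, 15 to 16 kb from the 5′ edge, held 29 cDNAs in replicate 1 and 63 in replicate 2. In the other libraries it held 10 and the next bin 11. In the other libraries the share in the last 5 kb was 49.3% (33 of 67, 37.7% to 60.9%), with an interval that overlaps those of both replicates.

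Col1a2 also had more cDNAs at its 3′ end than an even spread would give. Its last 5 kb held 35 of 106 cDNAs in replicate 1 (33.0%, Wilson 95% interval 24.8% to 42.4%) and 73 of 291 in replicate 2 (25.1%, 20.5% to 30.4%), where an even spread would give 13.9%. The last full 1 kb bin held 19 and 36 cDNAs. The section from 20% to 30% held 10.4% in replicate 1, 18.2% in replicate 2 and 21.4% in the other libraries, where it was the fullest of the 10 sections. In both replicates the last section was the fullest, with 28.3% and 21.0%. At the 5′ edge the first 1 kb held 1 cDNA of replicate 1 (0.943%, 0.167% to 5.15%) and 16 of replicate 2 (5.50%, 3.41% to 8.74%). These intervals overlap, and the difference was not tested.

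Col3a1 was the most sparsely covered, and in both replicates it had more cDNAs at its 5′ and 3′ ends than an even spread would give. Its first 1 kb held 5 of 67 cDNAs in replicate 1 (7.46%, Wilson 95% interval 3.23% to 16.3%) and 22 of 127 in replicate 2 (17.3%, 11.7% to 24.8%), beside 2.60% for an even spread. The last 5 kb held 25.4% (16.5% to 36.9%) and 20.5% (14.4% to 28.3%), beside 13.0%. Both intervals of the first 1 kb lie above an even spread, that of replicate 1 only narrowly. With 30 cDNAs the other libraries gave 2 in the first 1 kb and 5 in the last 5 kb, too few to tell either from an even spread.

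In Fn1 the last 5 kb were not above an even spread, unlike those of the collagen genes in both replicates. They held 22 of 336 cDNAs in replicate 1 (6.55%, Wilson 95% interval 4.36% to 9.71%) and 51 of 939 in replicate 2 (5.43%, 4.15% to 7.07%), close to or below the 7.35% of an even spread. Signal was highest instead in the sections from 70% to 80% and from 80% to 90% of the span, which held 15.6 ± 2.31% and 17.0 ± 1.69% (SD, n = 2). In the other libraries they held 16.0% and 14.9%. The fullest 1 kb bin, 55 to 56 kb from the 5′ edge, was the same in all 3 sets, with 28 cDNAs in replicate 1, 63 in replicate 2 and 18 in the other libraries. The first 1 kb held 2.68% of replicate 1 cDNAs (Wilson 95% interval 1.42% to 5.01%) and 2.88% of replicate 2 cDNAs (1.98% to 4.15%). An even spread would give 1.47%, which lies inside the interval of replicate 1. In the other libraries the first 1 kb held 1.45%. At the very 3′ end, the last 2 kb held 5.06% in replicate 1 (Wilson 95% interval 3.18% to 7.95%) and 3.94% in replicate 2 (2.87% to 5.38%), beside 2.94% for an even spread. The last full 1 kb bin held 12 and 28 cDNAs.

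**Figure D2:**
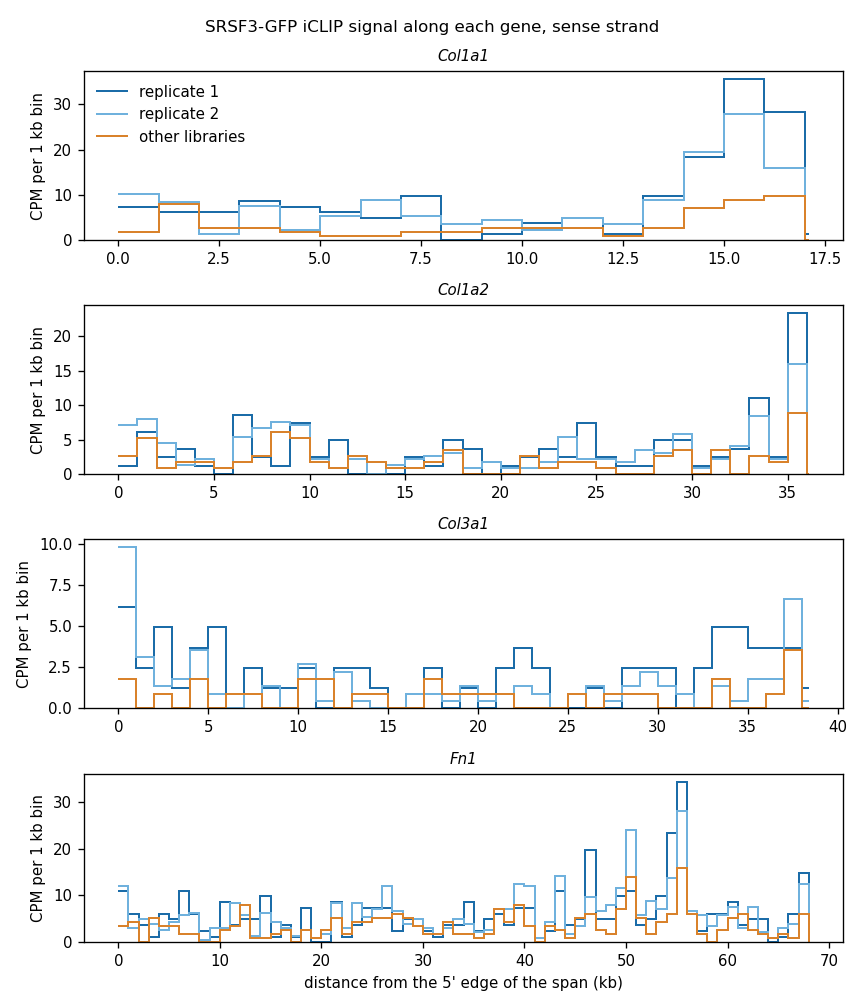
Sense CPM in 1 kb bins along each span, 5′ to 3′, in replicate 1, replicate 2 and the pooled other libraries (the last bin of each span is shorter than 1 kb). Col1a1 and Col1a2 are highest near the 3′ end, and Fn1 is highest in the bin that starts 55 kb from its 5′ edge. Col3a1 is highest in its first bin in both replicates, in replicate 1 with only 5 cDNAs against 4 in the next fullest bins.

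**Figure D3:**
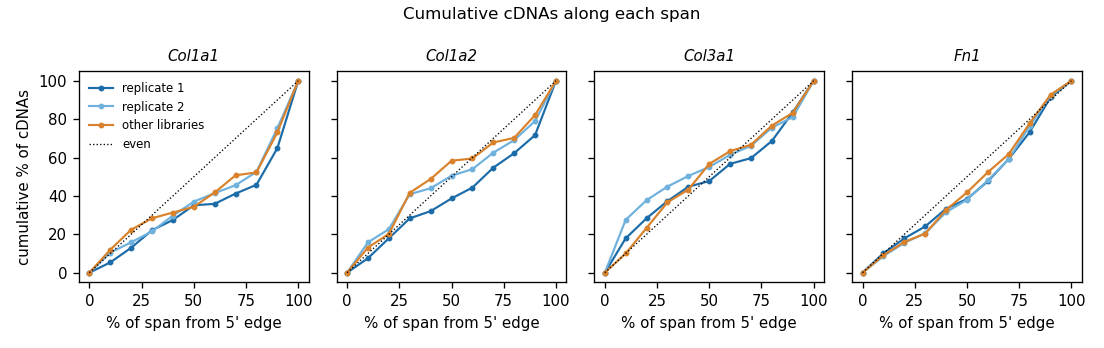
Cumulative percent of the cDNAs of each gene by sections of 10% of its span from the 5′ edge, for both replicates and the other libraries, with a dotted line for an even spread. Col1a1 lies below the dotted line from 30% to 90% of the span in both replicates and in the other libraries.

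The signal of each gene was spread over many single positions, with no dominant site. No position of Col1a1 held more than 2 cDNAs in replicate 1 or 3 in replicate 2, and the highest counts were 2 and 2 for Col1a2, 1 and 2 for Col3a1, and 3 and 4 for Fn1. Fn1 had the strongest position, 71645005, with 1 cDNA in replicate 1, 4 in replicate 2 and 0 in the other libraries, followed by 71656034 (1, 3 and 0) and 71645766 (2, 1 and 0). In Col1a1 the strongest was 94812975, with 1, 3 and 0 cDNAs, then 94797589 (2, 1 and 0) and 94811630 (2, 1 and 1). No position of Col1a2 held more than 2 cDNAs in all libraries together, and its first 3 by the rule, 4462474, 4470695 and 4479775, each had 1 in either replicate. In Col3a1 they were 45368544 (1, 1 and 0), 45397747 (0, 2 and 0) and 45368483 (0, 1 and 0). At counts this low single positions could not be ranked beyond counting error.

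Dense stretches, runs of positions with gaps of at most 30 nt and at least 10 cDNAs in the merged track, showed where crosslinks gathered. Col1a1 had 11 of them over 9.75% of the span, which took 53.4% of replicate 1 cDNAs and 44.0% of replicate 2 cDNAs. Fn1 had 24 over 5.38% of the span, with 40.2% and 35.6% of the cDNAs. Col1a2 had 6 over 2.63%, with 28.3% and 19.6%, and Col3a1, with 224 cDNAs in the merged track, had none. The share of cDNAs thus exceeded the share of length several times over in each of the first 3 genes. Since the stretches were defined on a track that contains both replicates, this excess is a description only. Their median length was 139 nt in Col1a1, 153.5 nt in Col1a2 and 135 nt in Fn1. The median exon of the longest coding transcript in GENCODE M21 is 54 nt, 54 nt and 156 nt. Whether a stretch lies in an exon could not be read without an mm9 annotation.

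The fullest stretch of Col1a1 ran from 94812789 to 94813165 (377 nt, 1435 nt from the 3′ edge), with 21 cDNAs in replicate 1, 40 in replicate 2 and 8 in the other libraries. Next came 94814073 to 94814310, with 14, 18 and 1, and 94812389 to 94812526, with 7, 14 and 4. Of the 11 stretches of this gene 8 lay within 3 kb of the 3′ edge, and the others lay 134, 1696 and 3730 nt from the 5′ edge. In Col1a2 the first 3 were 4491277 to 4491473 (11, 11 and 2 cDNAs), 4490764 to 4490943 (3, 14 and 3) and 4488603 to 4488817 (8, 9 and 2), all within 3 kb of the 3′ edge.

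In Fn1 the fullest stretch, 71643859 to 71644363, was 505 nt long and lay 55637 nt from the 5′ edge, inside the span and not at its end. It held 23 cDNAs in replicate 1, 47 in replicate 2 and 14 in the other libraries, or 24.5 ± 5.20 CPM (SD, n = 2) and 12.3 CPM. The second, 71648965 to 71649224, held 5, 37 and 9 cDNAs, so replicate 1 was the lower there. Next, 71656012 to 71656237, held 7, 26 and 3. Stretches of this gene were found from 284 nt to 67214 nt from the 5′ edge, and 1 of the 24 lay within 3 kb of the 3′ edge.

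Few exact positions recurred between the replicates. Of the replicate 1 positions, 9 of 127 in Col1a1 (7.09%, Wilson 95% interval 3.77% to 12.9%), 5 of 105 in Col1a2 (4.76%, 2.05% to 10.7%), 1 of 67 in Col3a1 (1.49%, 0.264% to 7.98%) and 24 of 327 in Fn1 (7.34%, 4.98% to 10.7%) were listed in replicate 2. As shares of replicate 2 these were 3.05%, 1.81%, 0.794% and 2.68%. In windows elsewhere on the nuclear genome with a density of replicate 2 positions within 1.5 times that of the gene, 7.39%, 3.69%, 1.83% and 5.90% of replicate 1 positions recurred. All 4 intervals contain the share of the windows of like density. In 1 kb bins, with a shorter last bin in each span, the replicates were compared by the Pearson r of log2(cDNAs + 1). It was 0.685 over 18 bins in Col1a1, 0.616 over 37 in Col1a2, 0.567 over 39 in Col3a1 and 0.755 over 69 in Fn1. These correlations are across bins of 1 gene, which share a transcript and are not independent.

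No gene differed between replicates 1 and 2 after adjustment. The two-sided exact binomial test set each gene's counts against the library totals, with Benjamini-Hochberg adjustment over the 4 spans and all 13920 windows of 10 kb with at least 50 cDNAs. At an adjusted p under 0.05, 0 of 4 spans and 13 windows (0.0934%) were called, and at an unadjusted p under 0.05, 1 of 4 spans and 775 windows. Col3a1 was the 1 span, with a log2 ratio of replicate 1 to replicate 2 of 0.54 (exact 95% interval 0.09 to 0.98, exact binomial p = 0.0146, adjusted p = 0.749). The ratios were 0.20 (-0.11 to 0.49) for Col1a1, 0.01 (-0.33 to 0.34) for Col1a2 and -0.02 (-0.20 to 0.17) for Fn1. The intervals still allow differences of these sizes between the libraries, and they are narrowest for Fn1, which had the most cDNAs.

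All 4 genes were lower in the other libraries than in the replicates. Col1a1 had 67 cDNAs there (58.9 CPM), against 161 and 140.2 CPM in the replicates. Col1a2 had 84 (73.8 CPM), against 129.99 and 129. Col3a1 had 30 (26.4 CPM), against 82.2 and 56.4, and Fn1 had 275 (242 CPM), against 412 and 417. The pooled value lay below both replicates for each gene, by more than the replicates differed from each other.

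Against both replicates together the log2 ratio was -1.31 for Col1a1 (exact 95% interval -1.70 to -0.93, adjusted p = 1.08e-12, exact binomial test). It was -1.26 for Col3a1 (-1.87 to -0.70, adjusted p = 1.75e-05, exact binomial test). For Col1a2 it was -0.81 (-1.17 to -0.47, adjusted p = 1.47e-05, exact binomial test), and for Fn1 it was -0.78 (-0.98 to -0.59, adjusted p = 5.75e-16, exact binomial test). The replicates thus stood 2.47, 2.40, 1.75 and 1.72 times as high as the other libraries for Col1a1, Col3a1, Col1a2 and Fn1. Whether the collagen genes differ from Fn1 in this was not tested, and the intervals of Col1a1 and Fn1 overlap slightly. These p-values cover counting error between pools of libraries, not the spread between cultures.

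Many other windows also differed. Of 21841 windows with at least 50 cDNAs, 27.9% were called in either direction and 13.4% as lower in the other libraries, against 4 of 4 spans. The share called in either direction was 17.9% with a minimum of 20 cDNAs and 45.7% with a minimum of 100. The median log2 ratio was -1.04 over the 4 spans and -0.12 over the windows. The spans hold more cDNAs than most windows, and windows with many cDNAs were called more often. Among windows with a number of cDNAs within 1.5 times that of the gene, 63.7% (Col1a1), 62.3% (Col1a2), 30.8% (Col3a1) and 85.5% (Fn1) were called as lower. Of the same windows, 3.40% had a lower ratio than Col1a1, 4.77% a lower ratio than Col3a1, 28.8% a lower ratio than Col1a2 and 53.2% a lower ratio than Fn1. Among windows of like cDNA number, Fn1 (62 windows) was therefore in the middle and Col1a2 below it, while Col1a1 and Col3a1 were near the low end. These windows are shorter than the spans, so they are denser than the genes they were matched to. Of all 21841 windows, 4.64% had a lower ratio than Col1a1, 5.28% than Col3a1, 17.1% than Col1a2 and 18.1% than Fn1. The library identifiers differ between the replicates and the other libraries, so identifier and difference cannot be told apart.

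**Figure D4:**
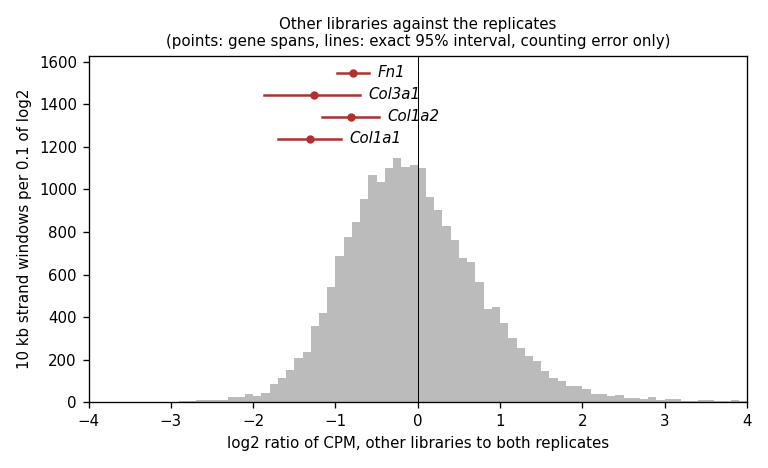
Distribution of the log2 ratio of the other libraries to both replicates over 10 kb strand windows with at least 50 cDNAs (grey, 94 windows beyond the axis not drawn), with the 4 gene spans as points and their exact 95% intervals as lines. All 4 spans lie left of 0, from -1.31 for Col1a1 to -0.78 for Fn1.

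Lower values in the other libraries were found along each gene. Of the 20 windows of 10 kb that overlap the spans, 17 had at least 50 cDNAs, and all 17 had a log2 ratio below 0, from -1.52 to -0.40, beside 55.8% of all tested windows. At an adjusted p under 0.05, 6 of the 17 were called as lower, beside 13.4% of all tested windows. They were 2 of 3 in Col1a1, 1 of 5 in Col1a2, 0 of 2 in Col3a1 and 3 of 7 in Fn1. None was called as higher, beside 14.5% of all tested windows. Windows of a gene share its RNA and are not independent. Split into 3 equal parts from the 5′ edge, Fn1 had log2 ratios of -0.83, -0.67 and -0.84, and Col1a1 had -1.12, -1.21 and -1.43. Col1a2 had -0.68, -0.45 and -1.14, and Col3a1 had -1.59, -0.61 and -1.28. The middle parts of Col1a2 and Col3a1 rest on 19 and 8 cDNAs of the other libraries, and their intervals reach above 0 (to 0.30 and 0.53). Across bins the Pearson r between the other libraries and both replicates together was 0.767 in Col1a1, 0.598 in Col1a2 and 0.698 in Fn1, over the same bins as above. In Col3a1, with 30 cDNAs in the other libraries, it was 0.280, beside 0.567 between its replicates.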

How the data were processed

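Each line of the tracks deposited by the authors gives 1 nucleotide and a score, the number of cDNAs there with a minus sign for the minus strand, on mm9 with annotation Ensembl 59, per the file headers. Reads were mapped with Bowtie 0.10.1, per the submitters' processing notes. Collapse of duplicate cDNAs and handling of reads with several matches are not given in the sources used here. Depth was 815414 and 2253688 cDNAs in replicates 1 and 2, and the merged track minus both gave the other libraries.

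cDNAs were summed by span and strand and scaled to 1000000 cDNAs. Tests were two-sided exact binomial tests with Benjamini-Hochberg adjustment over all windows and the 4 spans (SciPy 1.17.1, pandas 2.3.3). Intervals are 95% (Wilson for shares, exact otherwise) and cover counting error only, since cDNAs that were amplified together may not be independent. The named items were the 4 genes, and in each the 3 strongest positions, the 3 fullest stretches and the densest window. Members and lists were chosen with earlier results of these data known. Further matrix genes and cell type markers were planned only for an mm9 annotation and are not analysed here. Coding sequences and lengths came from GENCODE M21, and no coordinate was converted. The coding stretch of 1 gene is not reported here.

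On simulated windows of the comparison of the other libraries with the replicates (21841 windows), 56 of 100 windows made 4-fold lower and 17 of 100 made 2-fold lower were called, with 1 of 21641 unchanged windows. For replicate 1 against replicate 2 (13920 windows) these were 58, 11 and 4 of 13720. The simulated counts were Poisson draws at the library totals, as the test assumes, with no other spread between libraries. They therefore check the test under its own model and give no rate of false or missed calls in the real libraries. Alternatives varied the span edges, totals, unit counted, strongest position, replicates used, window minimum and size, gap length and length of the 3′ end.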

Additional observations from a re-analysis of the deposited data

How the results depend on the processing

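All 4 genes stayed lower in the other libraries, with an adjusted p under 0.05 (exact binomial test), under each of the 6 alternatives tried. Without replicate 1 the log2 ratios ran from -1.25 (Col1a1) to -0.79 (Fn1), and without replicate 2 from -1.64 (Col3a1) to -0.77 (Fn1). Between the replicates no alternative gave a call, and Col1a2, near 0 throughout, turned to -0.00997 with the span extended by 1 kb. With 1 kb added, Col1a2 had 130.4 CPM. With totals taken without the mitochondrial genome and the strongest windows, Col1a1 had 157.5 CPM, Col1a2 136, Col3a1 72.6 and Fn1 434. With each position counted once, Col1a1 had 153 positions per 1000000 covered positions, Col1a2 134, Col3a1 73.6 and Fn1 426. Stretches depended on the gap joined: at 15 nt there were 6 in Col1a1, 1 in Col1a2 and 14 in Fn1, and at 60 nt there was 1 in Col3a1. The share at the 3′ end depended on the length used. The last 2 kb held 33.3% of Col1a1, 16.0% of Col1a2, 10.4% of Col3a1 and 4.50% of Fn1 (11.7%, 5.54%, 5.21% and 2.94% if even), and the last 10 kb held 68.6%, 40.3%, 33.7% and 12.9% (58.5%, 27.7%, 26.0% and 14.7% if even). With a minimum of 100 cDNAs, 3504 of 7660 windows (45.7%) differed between the other libraries and the replicates. The share was 17.9% with a minimum of 20 and 40.4% for 50 kb windows, beside 27.9% with the settings used. No paired analysis was possible because the iCLIP replicates form a single group and the hearts, whose groups share numbers, are not analysed here. Depth limits Col3a1 most.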

Other observations

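The strand opposite to the matrix genes was nearly empty inside the spans but not beyond the 3′ edges of Col1a1, Col3a1 and Fn1. Downstream of Col1a2 it held 0 cDNAs in every library. In the 20 kb downstream of Col1a1 it held 22 cDNAs in replicate 1, 58 in replicate 2 and 16 in the other libraries, a log2 ratio of the other libraries to the replicates of -0.89 (exact 95% interval -1.77 to -0.10). Downstream of Col3a1 it held 12, 31 and 3, a ratio of -2.41 (-4.74 to -0.77). Downstream of Fn1 the direction was the opposite, with 7, 26 and 41 cDNAs and a ratio of 1.74 (1.05 to 2.45). In RefSeq (GRCm38.p6) the coding genes that follow Col1a1, Col3a1 and Fn1 are Sgca, Col5a2 and Atic. Whether these flanks reach into them was not determined on mm9, and the flanks were described after their values were seen, with no test.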
